A study of Mus musculus with 7 samples.

Results

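Serpins are a family of proteins that share one fold, and most of them trap serine proteases. An exposed stretch of the inhibitor, the reactive centre loop, is offered to the protease as bait, and when it is cut the loop folds into the body of the serpin and locks the enzyme in place. Hepatocytes secrete much of the serpin content of blood plasma, where the family restrains neutrophil elastase, thrombin, plasmin and the complement protease C1s, and where 2 of its hormone-binding relatives, Serpina6 and Serpina7, carry corticosteroids and thyroid hormone. The family is divided into clades named by the letter after Serpin in the gene symbol: most secreted inhibitors of the alpha-1-antitrypsin type are in clade A, and most intracellular serpins are in clade B.

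The members were taken by name, as every row whose gene symbol starts with Serpin and does not end in -ps, the suffix of a pseudogene. That rule left 63 of the 37468 rows in each deposited table, and it set aside 4 of the 67 rows that start with Serpin. It kept 2 symbols that end in -ps1 and so also name pseudogenes, Serpina4-ps1 and Serpinb1-ps1. No measured value was used to choose a member.

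RNA from liver of C57BL/6 mice was sequenced in 7 libraries, and gene levels were given as FPKM, that is fragments scaled to transcript length and library size, a scale on which genes of different length can be set side by side. One library came from a SunTag-dCas9 knock-in mouse in which Myod1, a muscle transcription factor, was activated (Myod1_active), 2 came from controls of that experiment, which are SunTag-dCas9 mice as well (Myod1_control), 2 came from SunTag-dCas9 mice outside that experiment (SunTag), and 2 came from wild-type mice (WT). SunTag-dCas9 is a Cas9 that binds DNA without cutting it and carries a repeated peptide tag that recruits effector proteins. The sources used here do not state the promoter of the knock-in, the means of activation, what the control mice received, or the age and sex of the animals. The labels do not tie the libraries of a group to different animals, and the p-values therefore reflect the spread among libraries only, which may be technical.

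Myod1 was at 3.52 FPKM in the Myod1_active library and was listed at 0 in the other 6 libraries. Alb, the hepatocyte albumin gene, lay between 28500 and 35431 FPKM in the 3 libraries of the Myod1 experiment. In the 4 libraries of SunTag or WT it lay between 46476 and 54093 FPKM. Xist, the transcript of the inactive X chromosome, was at 0.00420 to 0.324 FPKM in the 3 libraries of the Myod1 experiment and at 56.9 to 82.2 FPKM in the 4 libraries of SunTag or WT, while the Y-linked Ddx3y was at 6.97 to 9.23 FPKM in those 3 libraries and at 0 to 0.0765 FPKM in those 4. By these transcripts sex goes with experiment, and the 2 cannot be told apart. Across the 15744 genes tested, SunTag replicate 1 correlated with the WT libraries and with SunTag replicate 2 at Pearson's r of 0.943 to 0.948, below the 0.955 to 0.958 among those other 3 libraries. Read counts are unknown, and 83 of the 236 Serpin values above 0 lay outside their own deposited bounds, so those bounds were not used as errors.

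Several of the most abundant members are near-identical copies, so their sequences are shown first. Mice carry several copies of the gene for alpha-1-antitrypsin, the plasma inhibitor of neutrophil elastase, where humans have one. The coding sequences of Serpina1a to Serpina1e were 96.3% to 98.5% identical in the 10 pairs. The stretch printed here is the 54 bases of coding sequence, 5′ to 3′, that open at the conserved hinge of the reactive centre loop, where the copies differ in the bait they offer. It was read from GENCODE release 21 mouse transcripts (GRCm38), and capitals mark each base that differs from the most common base at its position among the copies, or all bases of a position without one.
Serpina1a: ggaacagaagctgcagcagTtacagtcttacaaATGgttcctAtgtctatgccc
Serpina1b: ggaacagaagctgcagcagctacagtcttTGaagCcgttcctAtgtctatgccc
Serpina1c: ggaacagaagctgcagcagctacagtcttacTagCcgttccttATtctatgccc
Serpina1d: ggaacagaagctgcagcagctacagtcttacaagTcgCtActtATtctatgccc
Serpina1e: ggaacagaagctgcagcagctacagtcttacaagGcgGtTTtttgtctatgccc
Of these 54 positions 13 varied among the 5 copies, which is 24.1%, and the copies shared the letters that open it.

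The Serpina3 genes, relatives of the single human gene for antichymotrypsin, were more diverse. The 4 copies shown here, the 3 most abundant and Serpina3c, were read in the same way and varied at 26 of 54 positions, or 48.1%, and their coding sequences were 83.4% to 91.7% identical in 6 pairs. Between the sets, Serpina1a and Serpina3k were 59.3% identical.
Serpina3k: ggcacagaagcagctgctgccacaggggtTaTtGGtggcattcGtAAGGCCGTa
Serpina3m: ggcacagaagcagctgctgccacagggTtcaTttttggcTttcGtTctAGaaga
Serpina3n: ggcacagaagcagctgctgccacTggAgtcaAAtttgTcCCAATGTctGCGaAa
Serpina3c: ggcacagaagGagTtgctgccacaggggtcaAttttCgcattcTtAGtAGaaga
Copies this alike limit how far a short read can be given to one of them. Of all stretches of 50 bases in the annotated transcripts of Serpina1a to Serpina1e, 26.7% to 71.8% occurred in no other Serpin gene, with Serpina1c lowest and Serpina1b highest. For the 11 Serpina3 copies that share was 78.1% to 99.9%. Read length and the handling of multiply aligned reads are not stated in the sources used here. Levels of single Serpina1 copies are thus uncertain and are given beside their sum.

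The family was dominated by clade A. Of the 63 members, 34 reached 1 FPKM in at least 1 library and were tested, 15 were above 0 but under 1 FPKM in every library, and 14 were listed at 0 in all 7. Of the members, 25 were at 1 FPKM or more in all 7 libraries, 12 at 100 or more, and 6 at 1000 or more: Serpina1a, Serpina1b, Serpina1c, Serpina1d, Serpina1e and Serpina3k. The 25 members of clade A summed to 17750 to 29563 FPKM per library, which was 85.4% to 92.1% of all Serpin FPKM. Among them, 22 reached 1 FPKM, and 24 lie together on chromosome 12 between 104854885 and 105652539 of the mm9 build, from Serpina10 to Serpina3n, a stretch of 0.798 Mb. Serpina7 lies on the X chromosome.

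The 27 members of clade B, which mostly act inside cells, summed to only 17.6 to 48.1 FPKM. Of these, 5 reached 1 FPKM, 13 were listed at 0 in all 7 libraries, and the 9 others stayed at or under 0.350 FPKM. The remaining clades are small: C, D, G and H had 1 member each, F had 2, and all of these were at 1 FPKM or more in every library. Clade E had 1 of 3 members that reached 1 FPKM and clade I had 0 of 2.

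**Figure D1:**
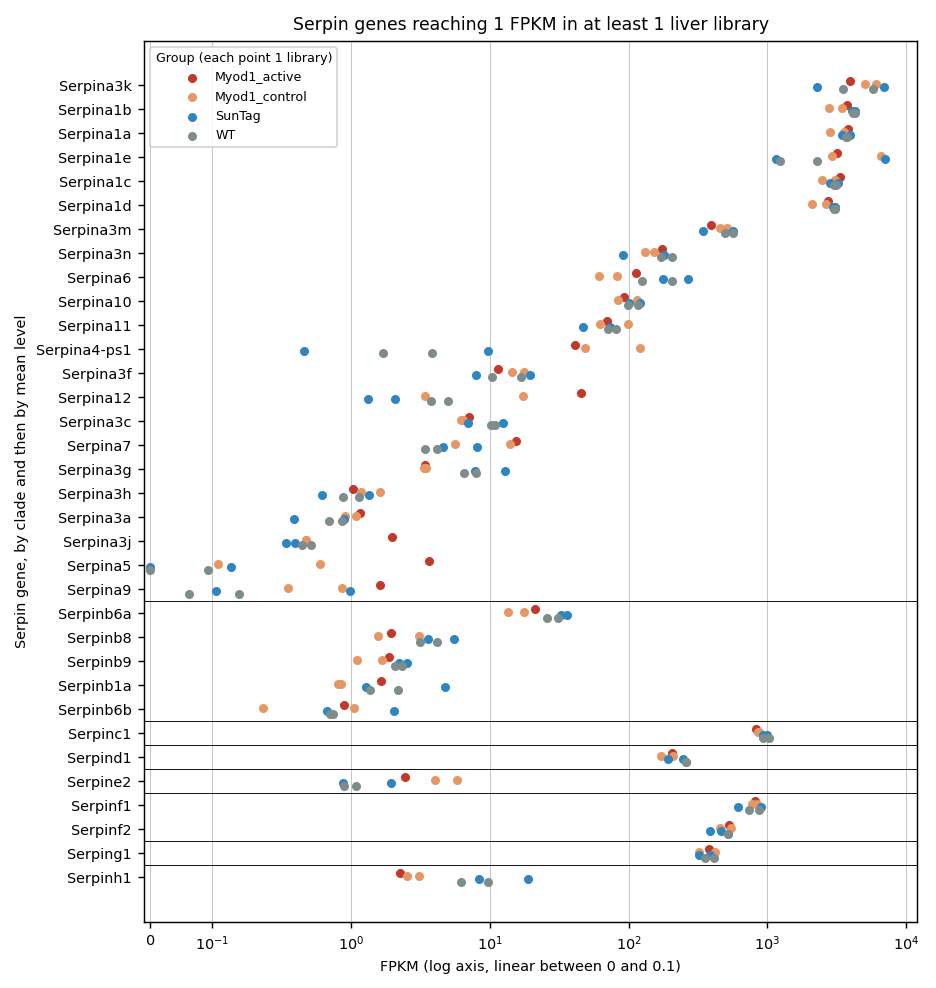
FPKM (log axis, linear between 0 and 0.1) of the 34 Serpin genes that reached 1 FPKM in at least 1 library, ordered by clade and then by mean, with 1 point per library in the colour of its group. Of the clade A genes, 6 sit above 1000 FPKM in every library, while Serpina4-ps1 spans 0.457 to 121 FPKM and Serpina12 1.34 to 45.7 FPKM.

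Among the antitrypsin copies, Serpina1a to Serpina1d held narrow ranges. Serpina1a was at 3833 FPKM in Myod1_active, 3559 and 2835 in Myod1_control, 3924 and 3427 in SunTag, and 3711 and 3729 in WT. Serpina1b lay between 2802 and 4307 FPKM over the 7 libraries, Serpina1c between 2495 and 3344, and Serpina1d between 2105 and 3093. Their summed FPKM was 13674 in Myod1_active, 12681 and 10238 in Myod1_control, 14504 and 13332 in SunTag, and 13995 and 14114 in WT. The highest library was thus 1.42 times the lowest, with both Myod1_control libraries at the low end. The sixth copy by name, Serpina1f, was listed at no more than 0.0103 FPKM.

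Serpina1e spread more widely than the copies it resembles. The gene (ENSMUSG00000072849, chromosome 12, 105185141 to 105197185 on mm9) was at 3197 FPKM in Myod1_active, 6559 and 2938 in Myod1_control, 7001 and 1163 in SunTag, and 2264 and 1241 in WT. The libraries of one group thus differed by 2.23-fold in Myod1_control, 6.02-fold in SunTag and 1.82-fold in WT, and the SunTag and WT groups overlapped. Divided by the mean of Serpina1a to Serpina1d in the same library, Serpina1e was at 0.935 in Myod1_active, 2.07 and 1.15 in Myod1_control, 1.93 and 0.349 in SunTag, and 0.647 and 0.352 in WT. By contrast, the ratio of Serpina1b to Serpina1a stayed between 0.970 and 1.20, that of Serpina1c to Serpina1a between 0.811 and 0.880, and that of Serpina1d to Serpina1a between 0.715 and 0.869. Serpina1e passed limma's test in none of the 3 comparisons, with a limma adjusted p of 1 and a difference of 0.75 (SE 0.954) relative to the median gene for SunTag against WT.

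**Figure D2:**
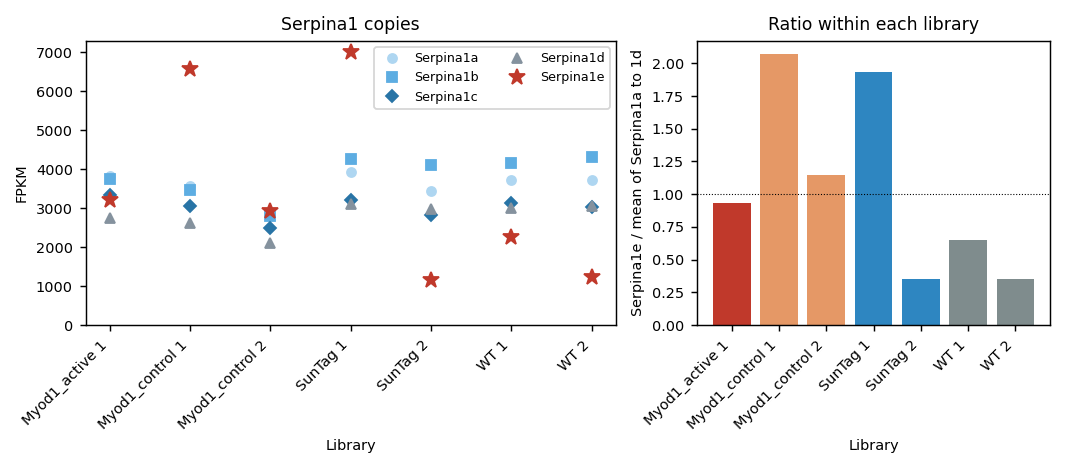
Left, FPKM of Serpina1a to Serpina1e in each of the 7 libraries. Right, Serpina1e divided by the mean of Serpina1a to Serpina1d in the same library, with the dotted line at 1; the ratio runs from 0.349 in SunTag replicate 2 to 2.07 in Myod1_control replicate 1.

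The DNA just upstream of these 5 genes is almost the same, which is why it is shown beside their levels. The windows below hold 120 bases each, 5′ to 3′ on the gene's strand, which is the minus strand of chromosome 12. They were taken from the RefSeq promoter table (GRCm38.p6) at matching positions, and each ends upstream of the start annotated there, by 63 bases for Serpina1e and by 1 to 12 bases for the others. Capitals mark each base that differs from the most common one.
Serpina1a, chr12:103863625-103863744: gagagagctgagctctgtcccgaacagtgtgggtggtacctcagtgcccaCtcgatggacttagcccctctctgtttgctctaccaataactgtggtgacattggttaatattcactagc
Serpina1b, chr12:103738200-103738319: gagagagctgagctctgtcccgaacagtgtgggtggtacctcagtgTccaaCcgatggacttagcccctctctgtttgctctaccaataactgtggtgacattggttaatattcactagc
Serpina1c, chr12:103904962-103905081: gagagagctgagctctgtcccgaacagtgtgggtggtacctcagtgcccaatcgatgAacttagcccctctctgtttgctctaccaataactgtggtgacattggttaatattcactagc
Serpina1d, chr12:103773634-103773753: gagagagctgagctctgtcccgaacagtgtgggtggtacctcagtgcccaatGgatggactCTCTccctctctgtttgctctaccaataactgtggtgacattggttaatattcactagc
Serpina1e, chr12:103956960-103957079: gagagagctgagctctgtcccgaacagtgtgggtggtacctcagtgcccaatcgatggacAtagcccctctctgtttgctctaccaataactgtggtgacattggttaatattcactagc
The copies varied at 10 of 120 positions, and Serpina1e carried 1 of these differences, as did Serpina1a and Serpina1c, against 2 in Serpina1b and 5 in Serpina1d. The letters GTTAAT, part of a palindrome bound by the hepatocyte factor HNF1, were found 1 time in each of the 5, on the gene's strand near the end of the window. Searched on both strands, they occurred in 7.1% of the 32851 promoters of 300 bases in the table. The letters TTCNNNGAA, a form bound by STAT factors, were found in none of the 5 promoters, and in 8.3% of all.

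The order of libraries within a group was shared by other members. In each of the 3 groups with 2 libraries, the library with more Serpina1e was replicate 1. That library also had more of 16 of the 33 other tested members in all 3 groups, or 48.5%, beside 18.0% of all genes tested. It had less of 1 member, Serpina6, in all 3, or 3.03%, beside 10.8% of all genes tested. Those 16 include Serpina3k, Serpina3m, Serpina3f, Serpina4-ps1, Serpina10, Serpinb6a and Serpinh1. This count was chosen after the values were seen, and reads shared between copies, and the libraries themselves, are common to the genes in it. The spread within groups was also wide for the family: in SunTag, 13 of the 26 members at 1 FPKM or more in both libraries differed by at least 1.5-fold, or 50%, beside 22.5% of all genes. The same count was 7 of 28 in Myod1_control, 25.0% beside 14.5%, and 7 of 27 in WT, 25.9% beside 8.37%.

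The Serpina3 copies summed to 4499 FPKM in Myod1_active, 6786 and 5658 in Myod1_control, 7664 and 2834 in SunTag, and 6540 and 4213 in WT. Most of this was Serpina3k, known as contrapsin (ENSMUSG00000058207, chromosome 12, 105576696 to 105583951 on mm9), at 3906 FPKM in Myod1_active, 6087 and 5045 in Myod1_control, 6961 and 2283 in SunTag, and 5764 and 3482 in WT. The Myod1_active library lay below both of its controls, and the SunTag libraries spanned the WT ones. Serpina3m followed at 394 FPKM in Myod1_active, 514 and 454 in Myod1_control, 563 and 346 in SunTag, and 566 and 494 in WT.

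Serpina3n, which inhibits granzyme B in mice and is a marker of the acute phase response, ran the other way within SunTag. It was at 173 FPKM in Myod1_active, 153 and 132 in Myod1_control, 91.2 and 181 in SunTag, and 172 and 205 in WT. The ratio of Serpina3k to Serpina3n, in which library size cancels, was lowest at 12.6 in SunTag replicate 2 and highest at 76.4 in SunTag replicate 1, so libraries of the same group stood 6.04-fold apart.

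The smaller Serpina3 copies stayed under 20 FPKM. Serpina3f was at 11.5 FPKM in Myod1_active and between 7.94 and 19.6 FPKM in the others, and Serpina3c at 7.10 FPKM in Myod1_active and between 6.24 and 12.5 FPKM in the others. Serpina3a and Serpina3h lay between 0.387 and 1.62 FPKM in all libraries. Serpina3b and Serpina3i did not reach 1 FPKM. Of the pseudogenes the rule sets aside, Serpina3e-ps was at 23.2 to 61.6 FPKM, above every intact copy other than Serpina3k, Serpina3m and Serpina3n.

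**Figure D3:**
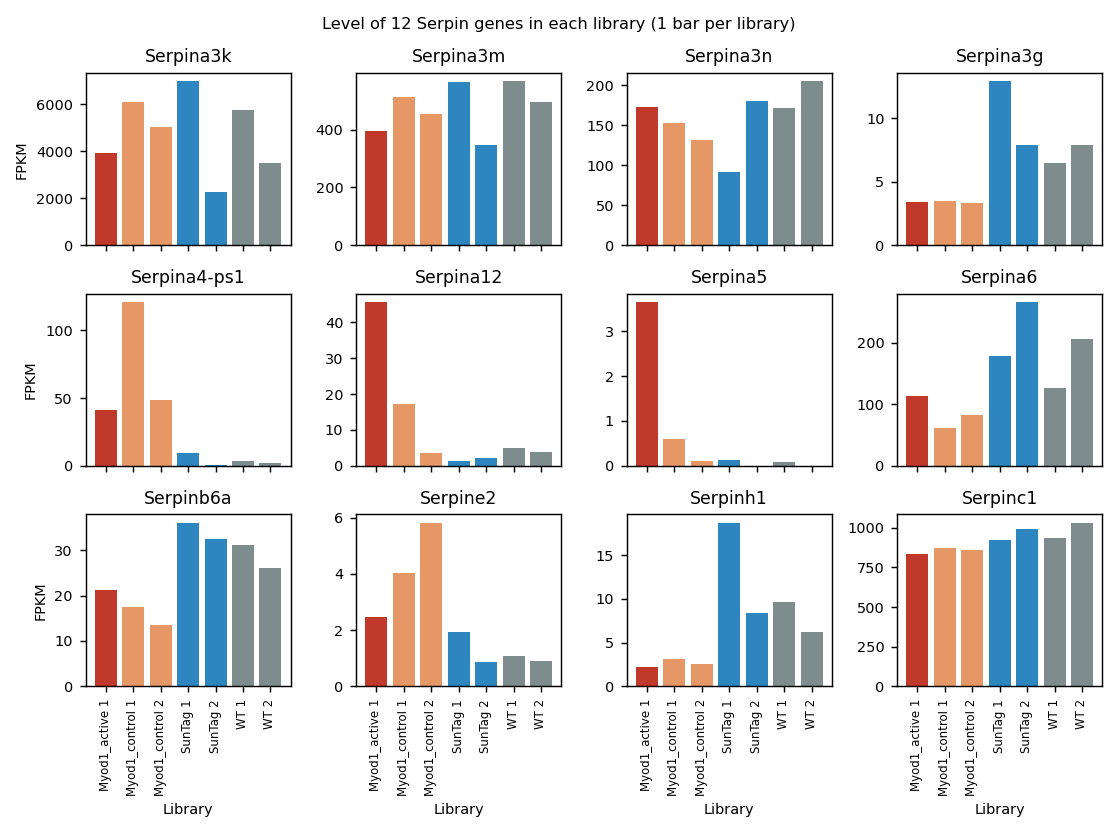
FPKM of 12 Serpin genes in each library (bars start at 0, 1 bar per library, scales differ between panels). Serpinc1 stays between 833 and 1033 FPKM, Serpina3k and Serpina3n differ in opposite directions between the 2 SunTag libraries, and Serpina5 and Serpina12 are highest in Myod1_active.

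The plasma inhibitors of coagulation and fibrinolysis outside clade A were among the steadiest members. Serpinc1, antithrombin, which blocks thrombin and factor Xa, was at 833 FPKM in Myod1_active, 872 and 863 in Myod1_control, 926 and 993 in SunTag, and 935 and 1033 in WT, so that the highest library was 1.24 times the lowest. Serpind1, heparin cofactor II, another thrombin inhibitor, was at 204 FPKM in Myod1_active and between 171 and 260 FPKM in the others. Serpinf2, alpha-2-antiplasmin, which stops plasmin, was at 532 FPKM in Myod1_active and between 389 and 546 FPKM in the others. Serping1, the C1 inhibitor of complement and contact activation, was at 382 FPKM in Myod1_active and between 324 and 416 FPKM in the others. Serpinf1, pigment epithelium-derived factor, which does not inhibit proteases, was at 817 FPKM in Myod1_active and between 618 and 899 FPKM in the others.

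Within clade A, Serpina10, the protein Z-dependent inhibitor of factor Xa, was at 93.3 FPKM in Myod1_active and between 83.6 and 122 FPKM in the others. Serpina6, corticosteroid-binding globulin, was at 113 FPKM in Myod1_active, 61.5 and 82.7 in Myod1_control, 178 and 266 in SunTag, and 126 and 206 in WT. All 3 libraries of the Myod1 experiment lay below all 4 others. Serpina7, thyroxine-binding globulin, was at 15.4 FPKM in Myod1_active, 5.58 and 14.1 in Myod1_control, 8.04 and 4.58 in SunTag, and 3.42 and 4.15 in WT. Myod1_active lay above both of its controls and both SunTag libraries lay above both WT libraries, while Myod1_control and SunTag overlapped.

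Inhibitors of cell-bound or intracellular proteases were at low levels. Serpinb9, an inhibitor of granzyme B, was at 1.87 FPKM in Myod1_active and at most 2.55 FPKM in the others, and Serpinb1a, an inhibitor of neutrophil proteases, at 1.66 FPKM in Myod1_active and between 0.805 and 4.73 FPKM in the others. Serpini1, neuroserpin, an inhibitor of tissue plasminogen activator in the nervous system, was at 0.612 FPKM in Myod1_active and between 0.0836 and 0.235 FPKM in the others. The highest member of clade B was Serpinb6a, at 13.5 to 36.1 FPKM. Of the other tested members, Serpinb8 and Serpinb6b lay between 0.231 and 5.54 FPKM. Serpina11, of clade A, was not at such low levels and lay between 47.2 and 99.4 FPKM.

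The comparison of Myod1_active with Myod1_control asked which Serpin genes differ in the liver in which Myod1 was activated. None of the 34 tested members passed the threshold, a limma adjusted p under 0.05 over all 15744 genes tested, and 0.254% of all genes did, 0.216% higher and 0.0381% lower. At an unadjusted p under 0.05 there were 3 members, Serpina5, Serpina3j and Serpina12, all higher in Myod1_active, against 19.5% of all genes. Serpina5 and Serpina3j, and Serpina9 named below, reached the 1 FPKM needed for testing in the Myod1_active library only. A high value there was thus a condition of their being tested. Differences are given on the log2(FPKM + 1) scale, which understates the change of low genes, and relative to the median gene, which itself shifted by 0.25. The Myod1_active group held 1 library, so its spread was taken to equal that of the other groups, and that arm has no replicate check.

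Serpina12, the adipokine vaspin (ENSMUSG00000041567, chromosome 12, 105266979 to 105282653 on mm9), was at 45.7 FPKM in Myod1_active, against 17.3 and 3.43 FPKM in Myod1_control. The difference was 2.12 (SE 0.835, 1 library against 2, limma adjusted p = 0.236), and the controls differed from each other by 5.05-fold. Serpina5, the protein C inhibitor (ENSMUSG00000041550, chromosome 12, 105339323 to 105344347 on mm9), was at 3.65 FPKM in Myod1_active, against 0.596 and 0.111 FPKM in Myod1_control. The difference was 1.55 (SE 0.283, limma adjusted p = 0.136), with the SunTag libraries at 0.138 and 0 and the WT libraries at 0.0933 and 0 FPKM. Serpina3j (ENSMUSG00000079013, chromosome 12, 105552763 to 105558935 on mm9) was at 1.97 FPKM in Myod1_active, against 0.473 and 0.472 FPKM in Myod1_control, a difference of 0.76 (SE 0.173, limma adjusted p = 0.151). In all 3 genes Myod1_active was the highest of the 7 libraries, which for Serpina5 and Serpina3j follows from the filter. Without the filter on low values, Serpina3j was called (limma adjusted p = 0.0272) and was the single member called. Serpina9, whose human relative is centerin, a serpin of germinal centre B cells, was at 1.62 FPKM in Myod1_active, against 0.864 and 0.355 FPKM in Myod1_control (limma adjusted p = 0.375).

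Over the family, Myod1_active lay outside the range of its 2 controls for 24 of 34 members, 70.6%, of which 16 were higher and 8 lower, and for 78% of all genes, 61.4% higher and 16.6% lower. Relative to the median gene, 13 members were above and 21 below, with a member median of -0.14. For the Serpina1 copies that were steady across libraries the difference was 0.02 for Serpina1a (SE 0.230, limma adjusted p = 0.526), and 0.03 for Serpina1c (SE 0.220, limma adjusted p = 0.496). Serpine2, protease nexin 1, was at 2.45 FPKM in Myod1_active, against 4.02 and 5.83 FPKM in Myod1_control, a difference of -1.01 (SE 0.343, limma adjusted p = 0.294).

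The listed proteases and other genes of the pathways in which these inhibitors act were also not called. Of 11 coagulation factors, 8 fibrinolysis genes, 8 complement genes and 6 leukocyte proteases tested, 0 passed in either direction between Myod1_active and Myod1_control. Of 24 other acute phase genes 1 passed, Orm2, an orosomucoid, at 814 FPKM in Myod1_active, against 74.4 and 49.9 FPKM in Myod1_control, a difference of 3.47 (limma adjusted p = 0.0344). Summed markers of Kupffer cells were at 43.1 FPKM in Myod1_active, against 39.3 and 42.3 FPKM in Myod1_control, and those of stellate cells at 26.8 FPKM in Myod1_active, against 32.1 and 21.2 FPKM in Myod1_control. Endothelial markers summed to 36.8 FPKM in Myod1_active, against 52.1 and 55.3 FPKM in Myod1_control. Relative to the median gene all 8 were lower, the list median being -0.76, and 0 were called. Cholangiocyte markers summed to 80.0 FPKM in Myod1_active, against 16.4 and 52.9 FPKM in Myod1_control, and 0 of 5 were called. The part of these markers in the Serpin values was not tested.

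**Figure D4:**
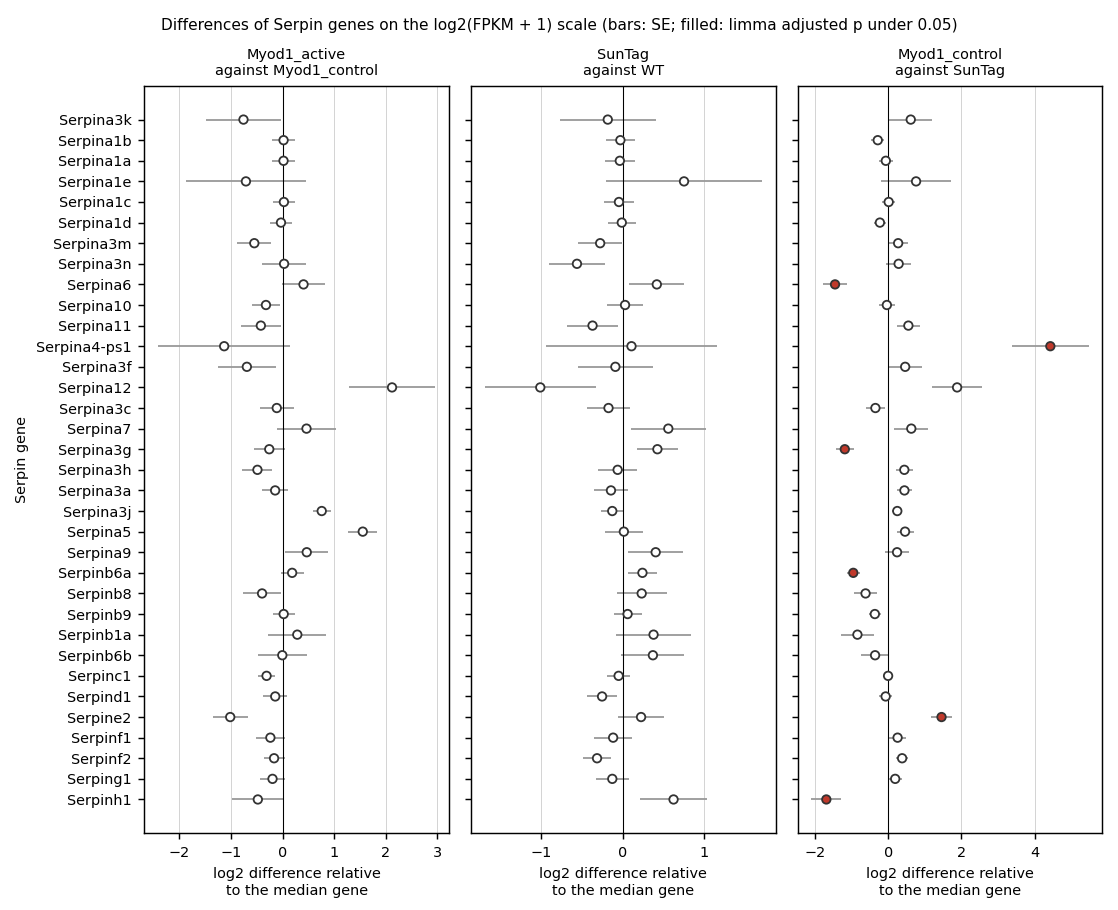
Differences of the 34 tested Serpin genes on the log2(FPKM + 1) scale relative to the median gene in 3 comparisons, with bars of 1 SE; filled points have a limma adjusted p under 0.05. No point is filled for Myod1_active against Myod1_control or SunTag against WT, and 6 are filled for Myod1_control against SunTag; the scales of the panels differ.

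The comparison of SunTag with WT asked whether Serpin levels differ between knock-in and wild-type liver. None of the 34 tested members was called by limma, beside 0.127% of all genes (0.0508% higher and 0.0762% lower), and 0 had an unadjusted p under 0.05, beside 1.95% of all genes. The groups did not overlap for 6 members, 17.6%, of which 2 were higher and 4 lower in SunTag, and for 25.8% of all genes, 13% higher and 12.8% lower. The member median relative to the median gene was -0.03, with 15 members above it and 19 below. Without SunTag replicate 1, the library that stands apart, 0 members were called as well.

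The antitrypsin copies other than Serpina1e had close means in these groups. Serpina1d averaged 3036 ± 81.0 FPKM in SunTag and 3028 ± 38.8 FPKM in WT (SD, n = 2 each), and Serpina1b 4186 ± 118 FPKM in SunTag and 4226 ± 114 FPKM in WT (SD, n = 2 each). For Serpina3k the means were 4622 ± 3308 FPKM in SunTag and 4623 ± 1613 FPKM in WT (SD, n = 2 each), so a difference within this spread was not detectable. Serpina12 was at 1.34 and 2.09 FPKM in SunTag, against 5.01 and 3.79 FPKM in WT, the widest difference of the family here at -1.01 (SE 0.681, limma adjusted p = 1). Serpinf2 was at 389 and 462 FPKM in SunTag, against 523 and 521 FPKM in WT, a difference of -0.31 (SE 0.166, limma adjusted p = 1). Of the listed coagulation, fibrinolysis, complement, leukocyte protease, collagen and other acute phase genes, 0 were called in this comparison.

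Myod1_control and SunTag are both SunTag-dCas9 livers, of different experiments, and the sex of the animals goes with the experiment, so the comparison serves as background. Of the 34 tested members 6 were called, 2 higher and 4 lower in Myod1_control, which is 17.6% beside 24.3% of all genes, 7.3% higher and 17% lower, so the share of the family was not above that of all genes. At an unadjusted p under 0.05 there were 7 members, beside 41.7% of all genes. The median gene shifted by -0.14. Over all genes 1149 were called higher and 2683 lower, a split that became 1735 higher and 1846 lower with median-ratio scaling and 1757 higher and 1764 lower with quantile normalization. The groups did not overlap for 16 members, 47.1%, of which 5 were higher and 11 lower, beside 66.6% of all genes, 24.9% higher and 41.6% lower. The calls rest on few libraries: with WT replicate 1, WT replicate 2, Myod1_control replicate 1 or Myod1_control replicate 2 left out, 0 members were called. Without SunTag replicate 1 the count was 1, Serpina4-ps1, and without SunTag replicate 2 it was 4, of which 3 were among the 6. In a fit of the 4 libraries alone it was 0, beside 1.68% of all genes. With a WT or Myod1_control library left out, the share of all genes called also fell far below 24.3%. The loss of calls was thus not particular to the family.

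The 2 members called higher were Serpina4-ps1 and Serpine2. Serpina4-ps1, named as a pseudogene of the kallistatin gene (ENSMUSG00000092075, chromosome 12, 105318859 to 105324934 on mm9), was at 121 and 48.5 FPKM in Myod1_control, against 9.71 and 0.457 FPKM in SunTag, and at 41.2 FPKM in Myod1_active and 3.85 and 1.72 FPKM in WT. The difference was 4.43 (SE 1.05, limma adjusted p = 0.0445), and all 3 libraries of the Myod1 experiment lay above all 4 others. Serpine2, an inhibitor of thrombin and urokinase on cell surfaces (ENSMUSG00000026249, chromosome 1, 79790772 to 79855271 on mm9), was at 4.02 and 5.83 FPKM in Myod1_control, against 1.93 and 0.878 FPKM in SunTag, with 1.09 and 0.888 FPKM in WT. The difference was 1.45 (SE 0.280, limma adjusted p = 0.0341).

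The 4 members called lower were Serpinb6a, Serpina3g, Serpina6 and Serpinh1. Serpinb6a, an intracellular serpin whose human relative inhibits cathepsin G (ENSMUSG00000060147, chromosome 13, 34009787 to 34094663 on mm9), was at 17.6 and 13.5 FPKM in Myod1_control, against 36.1 and 32.4 FPKM in SunTag, with 31.2 and 26.0 FPKM in WT and 21.3 FPKM in Myod1_active. The difference was -0.96 (SE 0.183, limma adjusted p = 0.0238). Serpina3g, an intracellular inhibitor of cathepsins in mouse immune cells (ENSMUSG00000041481, chromosome 12, 105474455 to 105480149 on mm9), was at 3.49 and 3.35 FPKM in Myod1_control, against 12.9 and 7.87 FPKM in SunTag, with 6.53 and 7.91 FPKM in WT and 3.40 FPKM in Myod1_active. The difference was -1.19 (SE 0.247, limma adjusted p = 0.0270), and the 3 libraries of the Myod1 experiment were close to one another.

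Serpina6 (ENSMUSG00000060807, chromosome 12, 104884840 to 104895422 on mm9) was at 61.5 and 82.7 FPKM in Myod1_control, against 178 and 266 FPKM in SunTag, a difference of -1.46 (SE 0.339, limma adjusted p = 0.0341). Serpinh1, the collagen chaperone HSP47 of the endoplasmic reticulum (ENSMUSG00000070436, chromosome 7, 106493885 to 106501740 on mm9), was at 3.12 and 2.54 FPKM in Myod1_control, against 18.7 and 8.41 FPKM in SunTag, with 9.67 and 6.18 FPKM in WT and 2.26 FPKM in Myod1_active. The difference was -1.70 (SE 0.407, limma adjusted p = 0.0370), and again the 2 experiments did not overlap.

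Markers of other liver cells differed between the same groups. Of 8 endothelial markers 7 were called lower in Myod1_control, with a sum of 52.1 and 55.3 FPKM in Myod1_control, against 183 and 191 FPKM in SunTag. Of 7 Kupffer cell markers 5 were called lower, with a sum of 39.3 and 42.3 FPKM in Myod1_control, against 290.4 and 200.2 FPKM in SunTag. Of 7 stellate cell markers 3 were called lower, with a sum of 32.1 and 21.2 FPKM in Myod1_control, against 136 and 76.1 FPKM in SunTag. Most of the SunTag sum was Dcn, at 94.0 and 50.5 FPKM, against 10.7 and 7.14 FPKM in Myod1_control. Relative to the median gene all 7 were lower, but to unlike degrees. Col1a1 was at 4.33 and 2.83 FPKM in Myod1_control, against 4.84 and 3.37 FPKM in SunTag. In these 3 lists no marker was listed at 0 throughout a group, and their part in the results for Serpinh1, Serpinb6a and Serpina3g was not tested. In whole liver, fewer cells of a type and less RNA per cell cannot be told apart. Of 4 red cell genes 2 were called lower and 1 higher. Hbb-b1 was at 0.638 and 0 FPKM in Myod1_control, against 1851 and 1060 FPKM in SunTag. Alas2 went the other way, at 44.1 and 38.2 FPKM in Myod1_control, against 21.7 and 13.8 FPKM in SunTag. Of 5 cholangiocyte markers 1 was called higher and 1 lower, and of 8 hepatocyte markers 1 was called higher and 2 lower. Of 20 listed sex-biased liver genes, 8 were called higher and 8 lower.

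The counts of the pathway lists in this comparison stand beside the 24.3% of all genes that were called. Of 11 coagulation genes 1 was called, F5, which was at 92.7 and 85.7 FPKM in Myod1_control, against 36.7 and 50.3 FPKM in SunTag. Of 8 fibrinolysis genes 0 were called. Of 6 leukocyte proteases 1 was called lower, Ctsb, the lysosomal protease cathepsin B, at 110.5 and 114 FPKM in Myod1_control, against 167 and 188 FPKM in SunTag. Of 8 complement genes 2 were called higher, C1ra and C1rb, proteases that Serping1 inhibits, and 3 lower, C1qa, C1qb and C1qc, which macrophages make. C1ra was at 107 and 99.2 FPKM in Myod1_control, against 60.1 and 61.7 FPKM in SunTag, while Serping1 itself was at 416 and 324 FPKM in Myod1_control, against 324 and 389 FPKM in SunTag (difference 0.18, SE 0.20, limma adjusted p = 0.875). Of 9 collagen genes, 2 were called higher, Col4a1 and Col4a2, and 2 lower, Col6a1 and Col6a2. Of 24 other acute phase genes 3 were called higher, and 7 were called lower, Orm2, Saa2 and Lcn2 among them.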

How the data were processed

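Liver RNA of 7 libraries was measured by RNA-seq. The submitters' processing notes name cutadapt 1.11, TopHat2 2.1.1, Cufflinks 2.2.1 and the mm9 build; the sources used here do not state settings, annotation or read length. Each table gives deposited FPKM by gene, per the file headers, with bounds and a status, and read depth is unknown. No further normalization was applied in the main test.

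After removal of 343 rows whose status was not OK everywhere, rows sharing a symbol were summed, and a gene was tested if it reached 1 FPKM in at least 1 library. log2(FPKM + 1) was fitted over all 7 libraries with 1 mean per group in limma 3.58.1 (R 4.3.3), with an empirical Bayes variance trend (3 residual and 1.93 prior degrees of freedom), two-sided tests and Benjamini-Hochberg adjustment over all genes tested. SE and p-values belong to differences before the shift of the median gene was taken off. Summed levels and shares are descriptions with no test. The code was tested on simulated data with known changes.

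Members with their own values were named by a rule: those called, the 12 most abundant, the 6 largest differences and 6 smallest p-values per comparison, and a list of members with known roles. The members, gene lists and tests were chosen with earlier results of these data known. No pair of tables had more than 1 identical value above 0, and every library was counted once. mm9 coordinates are the deposited ones with 1 added to the start. All 63 members matched a GENCODE transcript and 51 matched an entry of the RefSeq promoter table; protein sequences were not used here. Alternatives changed the pseudocount, filter, scaling, short genes, libraries in the fit and the replicate block.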

Additional observations from a re-analysis of the deposited data

How the results depend on the processing

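No called Serpin difference changed sign under any alternative run. For SunTag against WT 0 members were called under all alternatives run. For Myod1_active against Myod1_control 1 was called without the filter on low values (Serpina3j) and 0 under every other one. The Myod1_active library is the whole of its arm and could not be left out. For Myod1_control against SunTag, 6 were called, beside 24.3% of all genes. The count was 2 without the filter, beside 10.3%, and 0 with only the libraries of the 2 groups, beside 1.68%. Leaving out 1 library could move both the count and the share of all genes called. Over 16 alternatives the call was lost in 6 for Serpinb6a and Serpina3g, in 7 for Serpinh1, in 8 for Serpina4-ps1 and in 9 for Serpina6 and Serpine2; the cause was not tested. In that comparison 3 members gained a call under 1 alternative each, Serpina12 (short genes left out with median-ratio scaling), Serpina3c (without SunTag replicate 2) and Serpinb8 (replicate block).

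Median-ratio scaling put the mean summed FPKM in Myod1_active at 19266 for clade A (21754 as deposited), 12109 for Serpina1a to Serpina1d (13674) and 3985 for the Serpina3 copies (4499), and at 13690 for Serpina1a to Serpina1d in WT (14055). Over all 15744 genes tested, same-numbered libraries did not deviate together (r of 0.0425 for SunTag and WT, 0.000757 for Myod1_control and SunTag, 0.0341 for Myod1_control and WT). The numbers were therefore not taken as pairs, although many Serpin genes were higher in replicate 1 of each group. With the replicate number as a block, 0, 0 and 6 members were called in the 3 comparisons, 5 of the 6 shared with the fit without it; Serpine2 was lost and Serpinb8 gained. Groups of 1 or 2 libraries, and an unknown read depth, limit what could be detected.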
